A study of Mus musculus with 32 samples.

Results

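The genes that move fatty acids from blood lipoproteins across the capillary wall were examined in 3 cell types sorted from mouse islets: insulin-producing β cells, endothelial cells (ECs), and macrophages, written MΦs. The set holds 8 of the 22850 genes in the expression table, chosen by name: *Gpihbp1*, *Lpl*, *Lipg*, *Angptl4*, *Cd36*, *Fabp4*, *Fabp5*, and *Meox2*. The choice was made with earlier results of these data known. In ECs, *Gpihbp1* and *Fabp4* scored above every sample of both other cell types and *Lpl* scored below every one. Between untreated ECs (No Dox) and ECs taken 1 week after doxycycline withdrawal (1wk WD), *Fabp4* and *Cd36* differed by 0.04 and 0.11 on the log2 scale, *Meox2* by 1.46, and *Gpihbp1* by -0.66, of which none passed the test, although *Meox2* passed it under some alternatives. In MΦs, *Lpl* and *Fabp5* were higher after 1 week of doxycycline (1wk Dox) than at No Dox, and *Lpl* was lower again at 1wk WD. These calls rest on 2 samples at 1wk Dox, and with 1 of them left out the differences were of like size but not all calls held. Both samples come from a later range of library numbers, which cannot be told apart from the time point. The fall of *Lpl* at 1wk WD also lost its call under several alternatives.

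Triglycerides arrive in the blood inside lipoproteins and are cut at the inner face of capillaries. Lipoprotein lipase, encoded by *Lpl*, is mostly made by cells around the vessel and by MΦs, and the endothelial protein GPIHBP1 picks it up and carries it to the capillary lumen. Endothelial lipase (*Lipg*) acts mainly on phospholipids of high-density lipoproteins, and ANGPTL4 is a secreted inhibitor of lipoprotein lipase. CD36 helps fatty acids and oxidized lipids into cells, FABP4 and FABP5 carry them inside cells, and MEOX2 is a homeobox transcription factor that promotes fatty acid uptake in heart capillaries and is also made in vascular smooth muscle.

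All mice, untreated ones included, carried MIP-GFP, RIP-rtTA, and TetO-VEGF-A (βVEGF-A; MIP-GFP) on a C57BL/6 background, and were adult. The insulin promoter drives rtTA, so doxycycline (Dox) in the drinking water induces human VEGF-A in β cells, and a second insulin promoter labels these cells with GFP. No Dox mice were untreated, 1wk Dox mice received Dox for 1 week, and 1wk WD mice were studied 1 week after Dox withdrawal (WD), when VEGF-A induction has ended. Sorting used GFP+ CD31- CD11b- for β cells, CD31+ for ECs, and CD11b+ for MΦs, and islets of several mice were pooled for 1 sample. In the order No Dox, then 1wk Dox, then 1wk WD, β cells had 4, 5, and 3 samples, ECs 4, 1, and 5, and MΦs 4, 2, and 4, which makes 32. The values are scores, the authors' normalized expression values as whole numbers with 1 as the lowest, and their read depth is unknown. Scores summed to between 23465985 and 53441769 per sample. A gene was called different where limma, a linear model fitted across all genes, gave a fold change of at least 2 and a Benjamini-Hochberg adjusted p under 0.05. Differences are in log2(score + 1) unless a score or fold is named. In such bulk samples, fewer cells of a type and less RNA per cell cannot be told apart.

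The marker lists followed the labels for ECs and MΦs. The 11 endothelial markers summed to at least 377078 in each EC sample, at most 51471 in β cells, and at most 3860 in MΦs. The 10 macrophage markers summed to at least 280412 in each MΦ sample, and at most 7781 and 962 in β cells and ECs. The 10 β cell markers summed to at least 513966 in each β cell sample and at most 47759 elsewhere, but the β cell samples also held markers of other cells. The 6 pericyte and stromal markers summed to 876 at the lowest and 479980 at the highest among the 4 No Dox β cell samples. They were low in replicates 1 and 2, where *Pdgfrb*, the receptor that marks pericytes, scored 80 and 66, and high in replicates 3 and 4, where it scored 13692 and 49477. It scored between 6919 and 34404 in the 5 samples at 1wk Dox. The 1wk WD samples scored 48280, 40295, and 3980. Acinar markers summed to up to 9731597 in No Dox β cells, 1344442 in No Dox ECs, and 9339793 in No Dox MΦs, and to 17573 at most in any 1wk Dox sample. The 6 adipocyte markers summed to 104 or less in every sample. Markers of other islet endocrine cells summed to between 22647 and 206367 in β cells, and those of lymphocytes, neutrophils, and platelets to 3864, 2777, and 7760 at most in any sample. Lymphatic endothelial markers summed to between 11596 and 21090 in ECs. The library numbers of both 1wk Dox MΦ samples, of the 1wk Dox EC sample, and of β cell 1wk WD replicate 3 lie in a separate, later range than the others, so for 1wk Dox MΦs and ECs this and the time point cannot be told apart.

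By the coordinates of the table, on genome build mm9, *Gpihbp1* (ENSMUSG00000022579) lies on chromosome 15 from 75427088 to 75428642, *Lpl* (ENSMUSG00000015568) on chromosome 8 from 71404390 to 71431347, and *Fabp4* (ENSMUSG00000062515) on chromosome 3 from 10204347 to 10208576. *Fabp5* (ENSMUSG00000027533) lies on the same chromosome as *Fabp4*, from 10012548 to 10016607. *Cd36* (ENSMUSG00000002944) spans chromosome 5 from 17287508 to 17394777, *Angptl4* (ENSMUSG00000002289) chromosome 17 from 33910695 to 33918520, and *Meox2* (ENSMUSG00000036144) chromosome 12 from 37835127 to 37908372. All 8 genes are protein-coding in GENCODE M1, and a score covers the whole gene, so it does not tell which exon, intron, or UTR the reads fell in.

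The 200 bases before the annotated start of *Gpihbp1* and *Lpl* are shown because these members differed strongly, in opposite directions, between ECs and both other cell types at No Dox. They are genomic sequence of mm9 in the direction of the gene: chr15:75426888-75427087 and chr8:71404190-71404389, both on the plus strand. Capitals mark matches, on either strand, to any of 4 motifs. They were the TATA box, searched as TATAAA, the core of sites for ETS factors, searched as AGGAAG, the single site of nuclear receptors such as PPARs, searched as AGGTCA, and a site of homeobox factors, searched as TAATTA. No matches overlap in these windows.
Gpihbp1: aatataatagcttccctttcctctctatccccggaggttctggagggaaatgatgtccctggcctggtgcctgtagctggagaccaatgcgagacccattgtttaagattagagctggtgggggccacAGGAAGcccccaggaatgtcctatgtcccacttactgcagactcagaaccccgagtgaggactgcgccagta
Lpl: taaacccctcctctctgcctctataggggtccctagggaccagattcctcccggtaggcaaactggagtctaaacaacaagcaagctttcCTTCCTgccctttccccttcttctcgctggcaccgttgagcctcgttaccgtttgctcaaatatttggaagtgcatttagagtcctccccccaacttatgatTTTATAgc
*Gpihbp1* held 1 match to AGGAAG, whose first base lay 72 bases before the start. *Lpl* held the reverse complement of AGGAAG, its first base 110 bases before the start, and that of TATAAA 8 bases before it. Over 22375 protein-coding genes, 24.5% of such windows held AGGAAG, 10.1% TATAAA, 10.0% AGGTCA, and 3.5% TAATTA, so these matches are common and are given as a description.

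The first comparison asked which cell type carried each gene. *Gpihbp1* scored 1585, 2040, 2347, and 2428 in No Dox ECs, 2374 in the 1wk Dox EC sample, and 1212, 1597, 1332, 895, and 1690 in 1wk WD ECs. It scored 150 at most in any β cell sample and 24 at most in any MΦ sample, and stood at the lowest score of 1 in 7 of 12 β cell and 4 of 10 MΦ samples. EC samples were thus above all others without overlap. On the log2(score + 1) scale the No Dox difference was 8.93 (SE 1.05, n = 4 and 4) over β cells and 8.99 (SE 1.05, n = 4 and 4) over MΦs, with adjusted p of 3.1e-05 and 2.5e-05 from limma. Because most β cell and MΦ scores were near 1, these sizes depend on the pseudocount and ranged from 6.26 to 9.58 over β cells with pseudocounts of 20 and 0.1.

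*Fabp4* scored 14285, 17892, 20153, and 17268 in No Dox ECs and 14844, 14981, 20606, 20761, and 18334 in 1wk WD ECs. The No Dox MΦs scored 271, 431, 194, and 318. The 4 No Dox β cell samples scored 51, 10, 904, and 2634. All EC samples lay above all others, and the β cell samples spread widely, the upper pair being replicates 3 and 4. *Fabp4* was 6.49 higher (SE 1.33, adjusted p = 0.0017, limma) in ECs than in β cells on the log2 scale at No Dox and 5.88 higher (SE 1.33, adjusted p = 0.0033, limma) than in MΦs. At 1wk WD, where the β cell spread was smaller, the differences were 4.48 (SE 0.26, n = 5 and 3) and 6.47 (SE 0.24, n = 5 and 4).

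*Lpl* had the opposite pattern. It scored 80, 184, 104, and 76 in No Dox ECs, against 2823, 3119, 3481, and 2776 in MΦs and 1195, 2093, 3819, and 7009 in β cells. The EC samples did not reach the lowest sample of either other type. The log2 difference of ECs was -4.77 (SE 0.46, adjusted p = 7.5e-06, limma) from β cells and -4.86 (SE 0.46, adjusted p = 4.6e-06, limma) from MΦs, or 27.3- and 29.0-fold lower. MΦs and β cells at No Dox differed by 0.09 in *Lpl* on the log2 scale, with a 95% interval from -0.93 to 1.10.

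**Figure D1:**
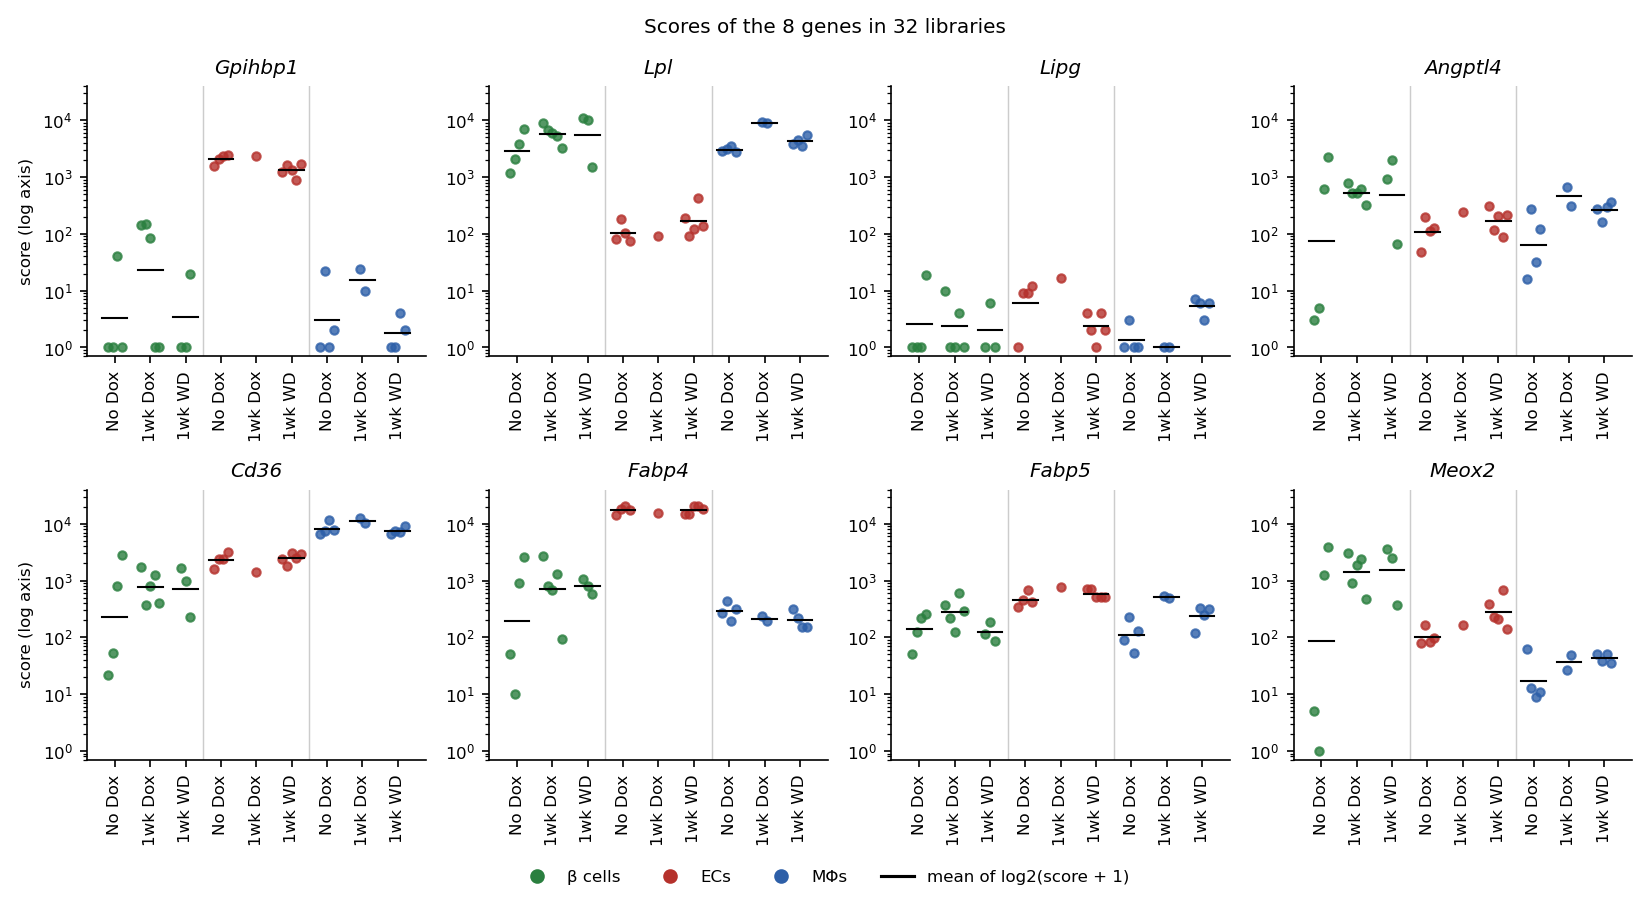
Score of each of the 8 genes in every sample, on a log axis from the lowest score upward, with 1 point per sample and a line at the mean of log2(score + 1) for groups of 2 or more. *Gpihbp1* and *Fabp4* are high in ECs alone, *Lpl* is at 427 or below in every EC sample, *Lipg* does not pass 19 anywhere, and No Dox β cells split into a low and a high pair for *Cd36*, *Fabp4*, *Angptl4*, and *Meox2*.

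*Cd36* was highest in MΦs. It scored 6709, 7426, 11818, and 7679 in No Dox MΦs, 1598, 2400, 2352, and 3119 in ECs, and 22, 52, 806, and 2814 in β cells. MΦ samples lay above all samples of both other types, while β cells and ECs overlapped. At No Dox the log2 difference of MΦs over β cells was 5.16 (SE 1.19, adjusted p = 0.0031, limma), and that of ECs over β cells was 3.33 (SE 1.19, adjusted p = 0.0364, limma). ECs were 1.83 lower than MΦs with an adjusted p of 0.246 (limma, n = 4 and 4) when β cells shared the estimate of the spread, and 7.8e-05 when only ECs and MΦs were fitted. At 1wk WD, ECs were 1.59 lower than MΦs (SE 0.42, adjusted p = 0.0059, limma).

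*Fabp5* has near-identical processed copies in the genome that the counting could have split reads with, so its level is less certain. No Dox scores were 345, 460, 682, and 423 in ECs, 51, 123, 223, and 260 in β cells, and 90, 228, 54, and 131 in MΦs. ECs lay above both without overlap, by 1.73 (SE 0.56, adjusted p = 0.0225, limma) over β cells and 2.06 (SE 0.56, adjusted p = 0.0099, limma) over MΦs on the log2 scale. At 1wk WD they lay 2.24 (SE 0.37) above β cells and 1.32 (SE 0.34) above MΦs, both of which passed the test.

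*Lipg*, *Angptl4*, and *Meox2* did not separate ECs from both other cell types. *Lipg* (ENSMUSG00000053846, chromosome 18 from 75098976 to 75120917) reached 19 at most, in a No Dox β cell sample, and did not pass the filter on low scores in any comparison. *Angptl4* scored 48, 196, 111, and 129 in No Dox ECs, 16, 274, 32, and 121 in MΦs, and 3, 5, 623, and 2271 in β cells, and passed the test in no comparison of cell types. *Meox2* scored 81, 163, 83, and 96 in No Dox ECs, 62, 13, 9, and 11 in MΦs, and 5, 1, 1268, and 3874 in β cells. It was highest in β cell replicates 3 and 4 and lowest in replicates 1 and 2. At 1wk WD it was 2.42 lower (SE 0.66, adjusted p = 0.0076, limma) in ECs than in β cells and 2.68 higher (SE 0.61, adjusted p = 0.0021, limma) than in MΦs, on the log2 scale.

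At No Dox, 5 of 7 members tested were called between ECs and β cells, where 37.7% of all genes were, 4 of 7 between ECs and MΦs, where 33.5% were, and 1 of 7 between MΦs and β cells, where 43.2% were. At 1wk WD the counts were 6, 6, and 3 of 7, beside 39.9%, 40.3%, and 46.2% of all genes. The members are few, and nothing is read from these shares for the set.

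Some calls rested on single samples or on the split of the β cells. Between ECs and β cells at No Dox, *Cd36* lost its call without β cell replicate 1 (2.22, adjusted p = 0.0938) or 2 (2.62, adjusted p = 0.0976), and without EC replicate 1, 2, 3, or 4, with adjusted p from 0.0565 to 0.0798 in limma. *Fabp5* lost it without β cell replicate 1 (1.26) or EC replicate 3 (1.55). *Meox2* in ECs was 4.44 lower than in β cell replicates 3 and 4 and 4.88 higher than in replicates 1 and 2, and *Angptl4* was 3.45 lower and 4.47 higher. These pairs were formed after the values were seen, so their opposite signs follow from the choice and are no test. At 1wk WD, *Cd36* between ECs and β cells fell to 0.97 without β cell replicate 3, and *Angptl4* was then called at -2.98. *Fabp5* between ECs and MΦs at 1wk WD fell to 0.99 without MΦ replicate 1. Between MΦs and β cells at 1wk WD, where *Cd36* (3.38), *Fabp4* (-1.99), and *Meox2* (-5.10) were called, *Lpl* (-1.32) and *Angptl4* (-2.33) were also called without β cell replicate 3, and *Fabp5* was called without β cell replicate 2 (1.22) or MΦ replicate 1 (1.25).

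**Figure D2:**
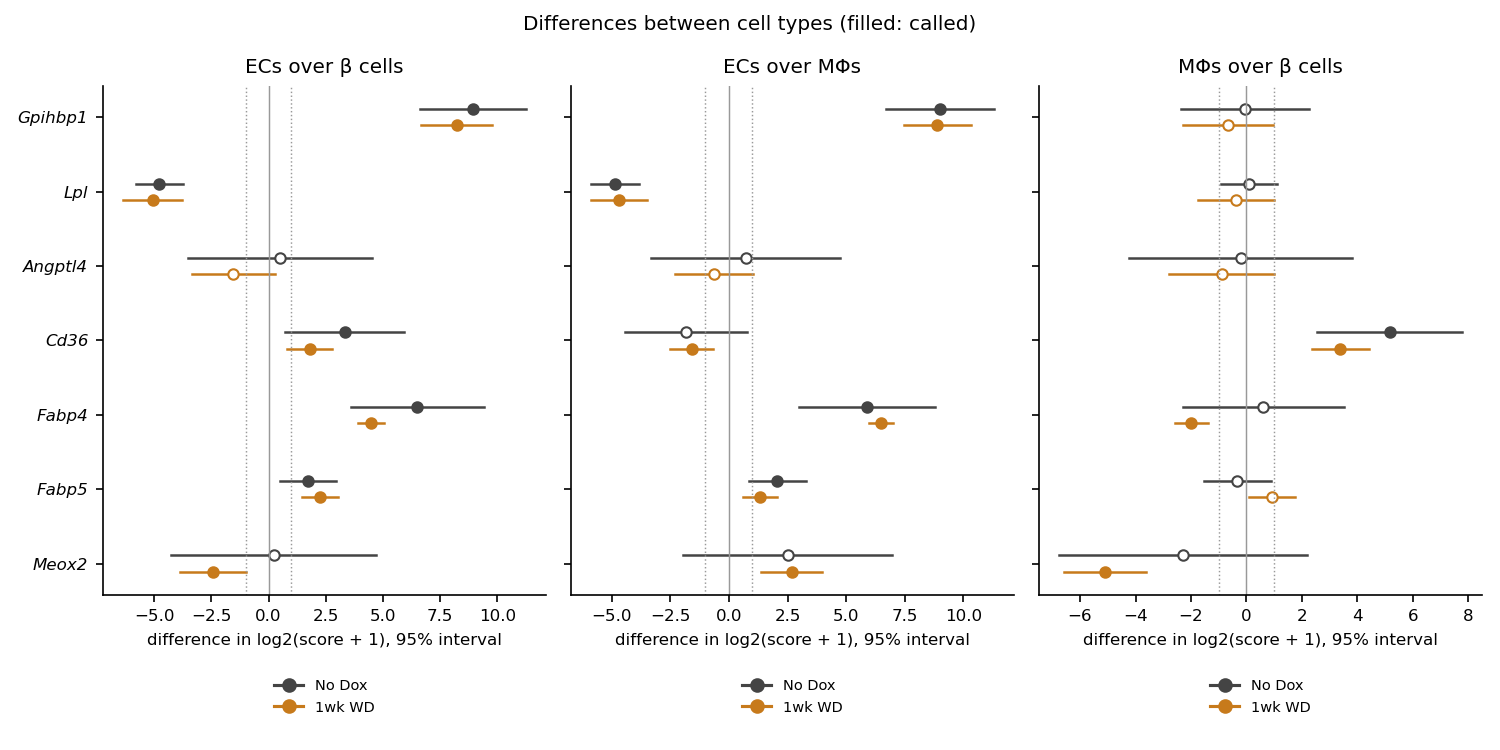
Difference in log2(score + 1) between cell types for the 7 members tested, with 95% intervals, at No Dox (grey) and 1wk WD (orange), filled where called and open where not, with dotted lines at a fold change of 2. In ECs over both other types *Gpihbp1* lies between 8.23 and 8.99 and *Lpl* between -5.06 and -4.68, and the No Dox intervals of *Angptl4* and *Meox2* reach across 0.

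Partners of the lipase and other genes of lipid handling were described in 5 lists beside the members. At No Dox, 37.7% of all genes were called between ECs and β cells and 33.5% between ECs and MΦs. Of 18 genes that act with or around lipases, 15 were tested between ECs and β cells at No Dox, 4 higher in ECs and 5 lower, with a median log2 difference of 0.00 (all genes -0.07). The 3 furthest above were *Scarb1*, the receptor for high-density lipoprotein (4.15), *Lipa*, the lysosomal acid lipase (2.75), and *Lipc*, hepatic lipase (1.99), and those below included the convertase gene *Pcsk6* (-6.53) and the lipoprotein receptor gene *Vldlr* (-6.19). Against MΦs, 4 of 15 were higher and 6 lower, with a median of -0.86 (all genes -0.01). The convertase gene *Pcsk5* (6.36), *Angptl8* (5.24), which encodes a relative of ANGPTL4, and *Scarb1* (2.63) were furthest above, and *Apoc2* (-7.52), the activator of lipoprotein lipase, and *Lrp1* (-6.76), a receptor for lipoprotein remnants, were among those below.

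Of 15 genes of fatty acid transport and activation, 4 were higher and 2 lower in ECs than in β cells at No Dox, with a median of -0.29. This is near the 37.7% of all genes called there, and 33.5% were called between ECs and MΦs. The caveolar genes *Cav1*, *Cav2*, and *Cavin1* were 6.15, 5.81, and 4.68 higher and *Acsl5* 1.24 higher, and the acyl-CoA synthetase gene *Acsl6* (-6.56) and the transporter gene *Slc27a1* (-3.66) were lower. Against MΦs, 3 were higher and 2 lower with a median of 0.05, *Cav1* (8.32), *Cavin1* (7.43), and *Cav2* (3.36) against *Slc27a1* (-4.11) and *Acsl1* (-2.81). Of 13 genes of lipid storage, 7 were higher and 2 lower in ECs than in β cells, beside 37.7% of all genes called, with a median of 1.57 (all genes -0.07). *Mgll* (monoacylglycerol lipase, 6.41), *Lipe* (hormone-sensitive lipase, 4.58), and *Agpat2* (3.63) led the former, and the glycerolipid synthesis genes *Lpin1* (-2.52) and *Gpam* (-1.59) made up the latter. Against MΦs, 4 were higher and 4 lower with a median of 0.03, *Mgll* (6.49), *Agpat2* (2.95), and *Lipe* (1.29) leading the former, and *Dgat2* (triglyceride synthesis, -4.87), *G0s2* (an inhibitor of lipolysis, -4.75), and the lipid droplet coat gene *Plin2* (-2.62) the latter.

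Of 15 genes of fatty acid oxidation, 3 were higher and 3 lower in ECs than in β cells at No Dox, with a median of -0.08, beside 37.7% of all genes called. The 6 follow. They were *Acads* (1.68), *Cpt1a* (1.32), and *Acadl* (1.27), and *Hadh* (-2.71), *Cpt2* (-1.17), and *Etfb* (-1.06), enzymes and carriers of β-oxidation. None of the 15 was called between ECs and MΦs, beside 33.5% of all genes, with a median of 0.25. Of 18 regulators of this program, 9 were higher and 3 lower in ECs than in β cells, and 9 higher and 3 lower than in MΦs, with medians of 1.37 and 0.78. Beside these, 37.7% and 33.5% of all genes were called. Against β cells, *Aplnr* and *Flt1*, receptors for apelin and VEGF, were each 7.99 higher and the coreceptor gene *Nrp1* 6.60 higher, and *Ppargc1b* (-4.06) and *Ppargc1a* (-3.29), coactivators of mitochondrial genes, and *Vegfb* (-2.34) were lower. Against MΦs, *Meox1*, the paralog of *Meox2* (9.91), *Aplnr* (9.67), and *Flt1* (7.90) were furthest above, and *Ppargc1b* (-4.96), *Rbpj* (-2.95), and *Ppard* (-1.34) were lower. *Tcf15*, which encodes a known partner of MEOX2, was 5.28 higher than in MΦs. At 1wk WD, 16, 13, 13, 15, and 17 genes of the 5 lists were tested, and in this order 3, 4, 4, 3, and 8 were higher in ECs than in β cells and 4, 4, 2, 1, and 2 lower, beside 39.9% of all genes called. Against MΦs they gave 4, 3, 3, 3, and 9 higher and 7, 3, 6, 1, and 4 lower, beside 40.3%. Between MΦs and β cells they gave 5, 2, 5, 2, and 2 higher in MΦs and 3, 2, 2, 3, and 1 lower of 15, 15, 13, 15, and 18 tested at No Dox, beside 43.2%. At 1wk WD the same comparison gave 5, 4, 6, 1, and 1 higher and 4, 4, 3, 2, and 5 lower, beside 46.2%.

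The next comparison asked how EC values stood 1 week after withdrawal, when VEGF-A induction had ended. None of the 7 members tested passed the test between No Dox and 1wk WD in ECs, where 1.76% of all 14167 genes did. With sample quality weights *Meox2* did (1.19, adjusted p = 0.0488, limma). *Fabp4* differed by 0.04 on the log2 scale (95% interval -0.26 to 0.33) and *Cd36* by 0.11 (-0.30 to 0.53), so changes of the size of the fold threshold lie outside both intervals. *Gpihbp1* was 0.66 lower (SE 0.19, adjusted p = 0.0745, limma, n = 4 and 5), with means of 2100 and 1345, and 2 samples at 1wk WD, at 1597 and 1690, lay above the lowest at No Dox, at 1585. *Meox2* was 1.46 higher (SE 0.41, adjusted p = 0.0643, limma), with scores of 389, 227, 214, 670, and 138 at 1wk WD, of which only the last lay within the No Dox range. *Lpl* (191, 93, 121, 427, and 136) was 0.67 higher (SE 0.42, adjusted p = 0.363, limma), *Angptl4* 0.64, and *Fabp5* 0.34, all with overlap.

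Markers of other cells and of capillaries moved in the same EC samples, and their part in the results was not tested. All 5 acinar markers were called lower at 1wk WD, with differences from -6.80 (*Cela2a*) to -6.08 (*Ctrb1*) and adjusted p from 0.0174 to 0.0252 in limma, and their sums were between 51176 and 1344442 at No Dox and between 649 and 48122 at 1wk WD. *Rgs5*, a pericyte gene, scored 4582, 8531, 4449, and 9981 at No Dox and 40996, 16799, 14734, 63203, and 18398 at 1wk WD. It was 2.01 higher at 1wk WD (SE 0.41, adjusted p = 0.0206, limma), and the 6 pericyte and stromal markers summed to between 5112 and 11627 at No Dox and between 16371 and 69352 at 1wk WD. Replicates 4 and 1, with the highest *Rgs5*, also had the highest *Meox2* and *Lpl*. As a percentage of *Rgs5* in the same sample, *Meox2* was 0.96 to 1.91 in No Dox ECs and 0.75 to 1.45 in 1wk WD ECs. It was 0.12 to 1.58, 0.82 to 1.46, and 2.10 to 3.49 in β cells at the 3 time points in turn, and 0.38 to 6.01 in MΦs, so the ratio was not constant. As a percentage of *Pdgfrb*, *Meox2* was 8.0 to 23.2 in No Dox ECs and 6.2 to 33.6 in 1wk WD ECs. It was 1.5 to 9.3, 7.0 to 10.4, and 6.2 to 9.5 in β cells at the 3 time points in turn. The 1.5 came from No Dox β cell replicate 2, where *Meox2* stood at the lowest score of 1. In MΦs it was 5.2 to 16.9. Both markers were chosen for these ratios after their values were seen.

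Capillary markers stood lower. The 4 of them summed to between 98666 and 120566 at No Dox and between 66793 and 77381 at 1wk WD. *Car4*, a carbonic anhydrase of capillary endothelium, was 1.63 lower (SE 0.26, adjusted p = 0.0078, limma) and was called. *Btnl9* (-0.74), *Cd300lg* (-0.62), and *Rgcc* (-0.39) were lower with adjusted p from 0.0135 to 0.0334 in limma, but by less than the fold threshold. The difference of *Gpihbp1*, -0.66, lay between those of *Btnl9* and *Cd300lg* in size and did not pass the test. The 11 general endothelial markers differed by -0.98 (*Kdr*) to 0.93 (*Cldn5*), and none was called. They summed to between 450516 and 488714 at No Dox and between 377078 and 429622 at 1wk WD, and the 6 markers of large vessels to between 6238 and 8804 and between 8712 and 12593. Of the large vessel markers, *Vwf* (1.385, adjusted p = 0.0157, limma) and *Selp* (1.577, adjusted p = 0.0345, limma) were called higher. *Gja4*, *Gja5*, *Sema3g*, and *Ackr1* were not called.

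Without 1wk WD replicate 5, *Meox2* in ECs was called (1.72, adjusted p = 0.0364, limma). Among the 5 lists, of which 13, 11, 12, 15, and 17 genes were tested in ECs, *Lrp1* alone was called, 1.44 higher at 1wk WD (SE 0.30, adjusted p = 0.0228, limma). It encodes a receptor that takes up lipoprotein remnants. It scored 187, 221, 266, and 338 at No Dox and 1105, 476, 375, 944, and 725 at 1wk WD, highest in replicates 1 and 4, and lost its call without No Dox replicate 1, 2, or 3, with values of 1.30, 1.38, and 1.47 and adjusted p from 0.0655 to 0.0811. *Lrp1* scored 20692 or more in every MΦ sample and up to 35915 in β cells. In No Dox β cells it scored 216 and 230 in replicates 1 and 2, where *Pdgfrb* was low, and 9871 and 26892 in replicates 3 and 4. As a percentage of *Pdgfrb*, *Lrp1* was 28.0 to 56.8 in No Dox ECs and 23.8 to 59.0 in 1wk WD ECs, a ratio chosen after the values were seen.

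The single 1wk Dox EC sample, from the later range of library numbers, allows values but no replicate check. It scored 2374 for *Gpihbp1*, 93 for *Lpl*, 15688 for *Fabp4*, and 162 for *Meox2*, each within the No Dox range. *Angptl4* at 241 lay above the No Dox range and 1.15 above the No Dox mean on the log2 scale, the only one of the 7 members that passed the filter to exceed a fold change of 2, as 10.7% of all genes did. *Fabp5* at 782 lay 0.76 above and *Cd36* at 1423 lay 0.69 below, both outside the No Dox range, where 62.1% of genes lay outside it. *Apln*, the gene of apelin, scored 4414 against 799 to 1057 at No Dox.

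In MΦs the question was how the genes stood during VEGF-A induction and 1 week after its end. *Lpl* scored 2823, 3119, 3481, and 2776 at No Dox, 9151 and 8982 in the 1wk Dox samples, and 3849, 4498, 3510, and 5531 at 1wk WD. The 3 groups did not overlap. *Lpl* was 1.58 higher at 1wk Dox (SE 0.18, adjusted p = 0.0015, limma, n = 2 and 4), or 2.98-fold, and 1.08 lower at 1wk WD than at 1wk Dox (SE 0.18, adjusted p = 0.0462, limma). It remained 0.50 above No Dox at 1wk WD (SE 0.15), which did not pass the test (adjusted p = 0.109, limma).

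*Fabp5* scored 90, 228, 54, and 131 at No Dox, 524 and 488 in the 1wk Dox samples, and 118, 327, 251, and 311 at 1wk WD. It was 2.19 higher at 1wk Dox (SE 0.54, adjusted p = 0.0404, limma), or 4.57-fold, and both 1wk Dox samples lay above all others. The difference at 1wk WD from No Dox was 1.09 (SE 0.44, adjusted p = 0.238, limma). *Angptl4*, the inhibitor of the lipase, scored 16, 274, 32, and 121 at No Dox and 660 and 315 at 1wk Dox, without overlap. Its difference of 2.80 (SE 0.87, adjusted p = 0.0862, limma) did not pass the test in all samples and did so without No Dox replicate 2 (3.48, adjusted p = 0.0190), the sample with the highest acinar markers. At 1wk WD it scored 278, 159, 302, and 367, 2.01 above No Dox (SE 0.71, adjusted p = 0.171, limma).

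*Cd36*, already high, scored 12370 and 10391 at 1wk Dox and differed from No Dox by 0.47 (95% interval 0.01 to 0.93, adjusted p = 0.226, limma). *Fabp4* scored 238 and 192 at 1wk Dox, within its No Dox range of 194 to 431 but for the lower sample, with a difference of -0.45 (95% interval -1.31 to 0.42). *Meox2* stood at 62 or less in every MΦ sample, and *Gpihbp1* and *Lipg* did not pass the filter. Thus 2 of 6 members tested were called at 1wk Dox, where 2.26% of all 15014 genes were, none at 1wk WD against No Dox, where 0.626% were, and 1 at 1wk WD against 1wk Dox, where 0.0866% were. The members are few and were chosen with earlier results of these data known, so nothing is read from these shares for the set.

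Both MΦ calls rest on 2 samples at 1wk Dox, which also come from the later range of library numbers, and this cannot be told apart from the time point. Leaving out either one leaves a single 1wk Dox sample, which the fit assumes to vary like the other MΦ groups. Without 1wk Dox replicate 4, *Lpl* differed by 1.56 in place of 1.58 (adjusted p = 0.0820, limma) and *Fabp5* by 2.14 in place of 2.19 (adjusted p = 0.500, limma), and neither was called. Without replicate 5, *Lpl* was called (1.59), and *Fabp5* was not (2.24, adjusted p = 0.196, limma). *Fabp5* also lost its call without No Dox replicate 1 (0.0774) or 4 (0.0516). The call of *Lpl* between 1wk Dox and 1wk WD was lost without 1wk Dox replicate 4 or 5 or 1wk WD replicate 1, 2, or 3, with differences from -1.11 to -0.99. It was also lost with a pseudocount of 20 (adjusted p = 0.0512), median-of-ratios scaling (0.0528), no filter (0.116), or no trend (0.248) in limma. At 1wk Dox against No Dox, *Fabp5* lost its call with no filter (0.134), no trend (0.0971), or only the groups compared (0.109).

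Other markers in these MΦs were measured beside the calls, and their part was not tested. The 10 macrophage markers summed to between 280412 and 370337 at No Dox, to 383655 and 468158 in the 1wk Dox samples, and to between 385715 and 470659 at 1wk WD. Of 4 platelet markers, 2 were called higher at 1wk Dox, the chemokine genes *Pf4* (2.43, adjusted p = 0.0101, limma) and *Ppbp* (4.80, adjusted p = 0.0298, limma). The others, *Itga2b* and *Gp9*, differed by 0.10 and 0.07. Markers of other lists called in the same comparison were *Erg* of ECs (2.41), *Tyrobp* of macrophages (1.00), *Vwf* of large vessels (-1.29), and *Cpa1* (-8.18) and *Pnlip* (-8.55) of acinar cells. At 1wk WD *Pf4* was called (1.87), and *Ppbp* (2.90), *Itga2b* (-0.46), and *Gp9* (-0.04) were not. Endothelial markers summed to between 1418 and 1858 at No Dox and to 3860 and 3090 at 1wk Dox, β cell markers to between 1975 and 47759 and to 8203 and 18153, and acinar markers to between 16966 and 9339793 and to 812 and 2736. Among the 5 lists, of which 16, 12, 13, 15, and 16 genes were tested in MΦs, *Hilpda*, a hypoxia-inducible lipid droplet gene that inhibits lipolysis, was alone called at 1wk Dox, and none was called at 1wk WD. It scored 187, 266, 203, and 264 at No Dox, 976 and 588 in the 1wk Dox samples, and 240, 717, 610, and 503 at 1wk WD. It was 1.73 higher at 1wk Dox (SE 0.40, adjusted p = 0.0314, limma) and lost its call without No Dox replicate 1 (1.64), 1wk Dox replicate 4 (1.37), or 1wk Dox replicate 5 (2.10).

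In β cells no member was called in any comparison of time points, nor was any gene of the 5 lists. The No Dox values split by replicate: *Cd36* scored 22, 52, 806, and 2814, *Angptl4* 3, 5, 623, and 2271, and *Meox2* 5, 1, 1268, and 3874. At 1wk Dox, *Meox2* scored 3045, 916, 1854, 2405, and 482, and at 1wk WD 3636, 2503, and 378. Both later groups lay within the No Dox range. The fitted log2 difference of *Meox2* at 1wk Dox was 4.03 with a 95% interval from -0.28 to 8.34, and that of *Lpl* 1.01 with an interval from -0.37 to 2.39. Scores at 1wk Dox ranged from 368 to 1715 for *Cd36*, 92 to 2680 for *Fabp4*, 124 to 613 for *Fabp5*, and 318 to 795 for *Angptl4*. Their fitted differences from No Dox were 1.73 (SE 1.25), 1.87 (SE 1.44), 1.02 (SE 0.57), and 2.80 (SE 1.75). At 1wk WD the ranges were 228 to 1643, 576 to 1059, 86 to 187, and 66 to 1957. These overlap the No Dox range for each of the 4 genes. *Lpl* scored 9085, 6792, 5868, 5262, and 3296 in 1wk Dox samples and 11062, 10258, and 1519 at 1wk WD. The share of all 16346 genes called was 0.0122% between No Dox and 1wk Dox, 0% between No Dox and 1wk WD, and 0% between 1wk Dox and 1wk WD, by limma. At an unadjusted p under 0.05 those counts were 660, 727, and 471 genes, and no other tool was run.

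Several marker lists split the No Dox β cells the same way, and their part in the member values was not tested. In replicates 1 to 4, acinar markers summed to 583450, 24356, 9731597, and 7684667, macrophage markers to 867, 490, 3186, and 5444, and β cell markers, in the opposite direction, to 8751584, 5647945, 1681031, and 644064. *Rgs5* scored 619 and 870 in replicates 1 and 2, and 80059 and 328651 in replicates 3 and 4. At 1wk Dox it scored between 55191 and 320202, and the 1wk WD samples scored 110039, 119247, and 10842, the last in replicate 3, which also had the lowest *Meox2*, *Angptl4* (66), and *Lpl* of its group. Against No Dox replicates 1 and 2 alone, *Cd36*, *Fabp4*, *Angptl4*, and *Meox2* at 1wk Dox differed by 4.45, 4.88, 6.77, and 8.69 on the log2 scale, which restates that these 2 samples were low for them and is no test. *Gpihbp1* and *Cdh5*, the gene of vascular cadherin, were set side by side in β cells. In 1wk Dox replicates 1 to 5, *Gpihbp1* scored 143, 150, 84, 1, and 1 where *Cdh5* scored 4829, 1394, 2033, 88, and 19. In 1wk WD replicates it scored 1, 1, and 20 where *Cdh5* scored 9, 130, and 1803, and at No Dox 1, 1, 40, and 1 where *Cdh5* scored 72, 59, 291, and 91.

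**Figure D3:**
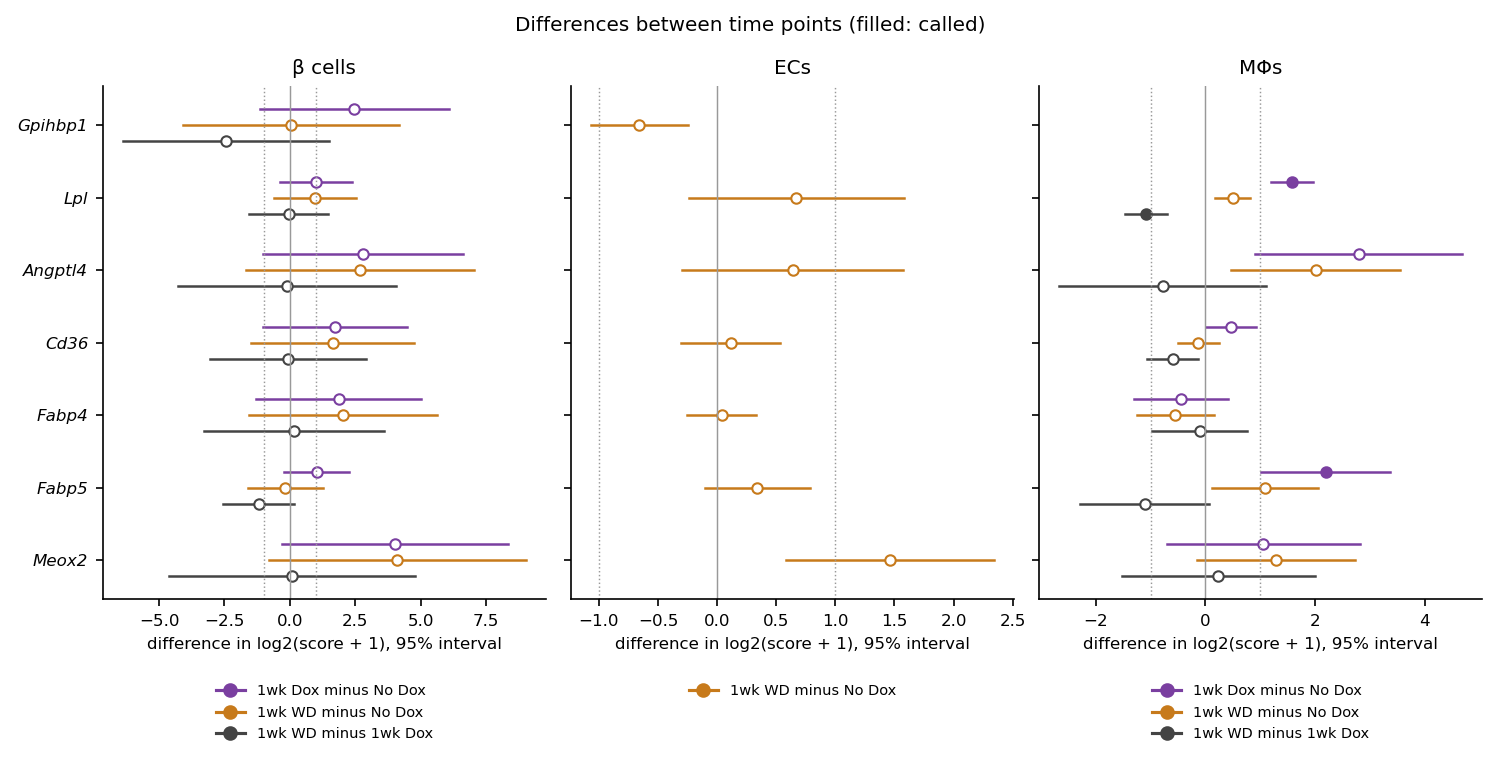
Difference in log2(score + 1) between time points for the 7 members in β cells and ECs, and for the same members without *Gpihbp1* in MΦs, with 95% intervals, for 1wk Dox (purple) and 1wk WD (orange) over No Dox and 1wk WD over 1wk Dox (grey). Points are filled where called, dotted lines mark a fold change of 2, and axes differ between panels. The β cell intervals all reach across 0, *Meox2* and *Gpihbp1* lie at 1.46 and -0.66 in ECs, and the filled points are *Lpl* and *Fabp5* in MΦs.

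Whether the change from No Dox to 1wk WD differed between cell types was tested with interaction terms. None of the 7 members tested was called in ECs against β cells, ECs against MΦs, or MΦs against β cells, where 0.368%, 0.0356%, and 0.0475% of 16833 genes were. With sample quality weights, *Lpl* (-1.94), *Cd36* (-3.85), *Fabp4* (-3.65), *Angptl4* (-6.30), and *Meox2* (-6.07) were called in ECs against β cells, and *Cd36* (-3.81), *Fabp4* (-4.39), *Angptl4* (-4.87), and *Meox2* (-6.08) in MΦs against β cells. All of these weighted calls use the No Dox β cells, which split into a low and a high pair for *Cd36*, *Fabp4*, *Angptl4*, and *Meox2*. Pericyte and acinar markers split the same samples, and how far the weighted calls rest on this was not tested. The intervals without weights were wide. For *Gpihbp1*, the change in ECs differed from that in β cells by -0.70 (95% interval -3.43 to 2.03), and for *Meox2* from that in MΦs by 0.17 (95% interval -4.36 to 4.70). The 3 terms share their EC, MΦ, and β cell samples and are not independent. They also share 1 spread that includes the β cells, which sets the intervals between ECs and MΦs too. The standard deviation of *Meox2* on the log2 scale was 5.46 in No Dox β cells. It was 0.47 and 0.88 in No Dox and 1wk WD ECs, and 1.22 and 0.28 in No Dox and 1wk WD MΦs.

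Across the 32 samples, the genes whose log2(score + 1) was most like each member were ranked by Pearson correlation over 16968 genes, as a description in which samples share cell type and islets. For *Gpihbp1* these were *Ces2e* (0.972), *Kdr* (0.965), which encodes VEGF receptor 2, and *Apln* (0.963). For *Fabp4* they were *Rnf144a*, *Rai14*, and *Nid2* (0.980 to 0.970), and *Lpl* was close to *Anpep* (0.953) and *Man2a2* (0.948). *Cd36* was most like *Epb4.1l2*, *Ifi204*, and *Tlr4* (0.971 to 0.962), the last a receptor of innate immune cells. For *Meox2* they were *B130024G19Rik* (0.988), *Arhgap42* (0.970), and *Pdgfrb* (0.967), and for *Angptl4* *C1ra* (0.936), *Igfbp4* (0.857), and *Akr1b8* (0.841). *Fabp5* (0.823 to 0.800, *S100a13*, *Commd2*, and *Efcab4a*) and *Lipg* (0.606 to 0.599, *Gm20458*, *2310045N01Rik*, and *Cables1*) had no gene as close. Among the members, *Gpihbp1* and *Fabp4* correlated at 0.865, *Gpihbp1* and *Lpl* at -0.823, and *Angptl4* and *Meox2* at 0.716.

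**Figure D4:**
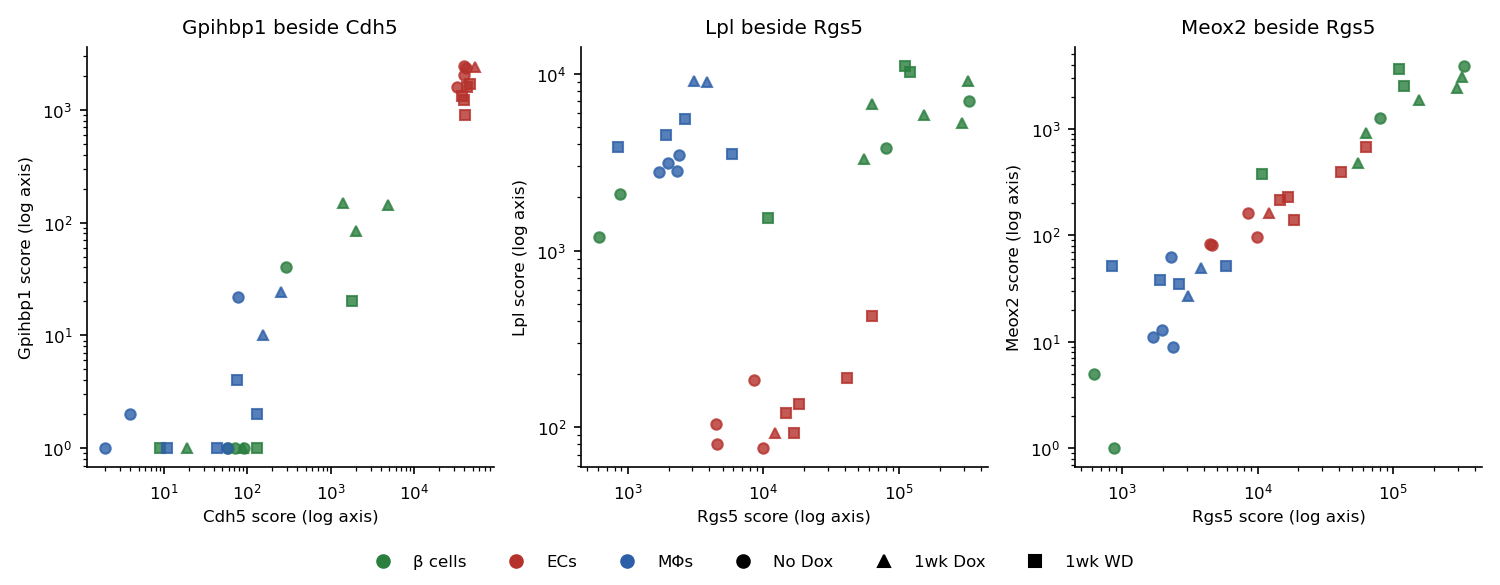
*Gpihbp1* against *Cdh5*, and *Lpl* and *Meox2* against *Rgs5*, 1 point per sample on log axes, colored by cell type and shaped by time point. *Meox2* scores range from 5 and 1 in No Dox β cell replicates 1 and 2, at low *Rgs5*, to 3874 in replicate 4, at high *Rgs5*, while *Lpl* is at 427 or below in ECs and at 1195 or above in the other cells at any *Rgs5* score.

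In order of mean log2 level over the 9 groups, *Gpihbp1* ran from ECs at 1wk Dox, No Dox, and 1wk WD down to 1wk WD MΦs, with a break without overlap only between 1wk WD ECs and 1wk Dox β cells. *Fabp4* had 1 such break, between 1wk Dox ECs and 1wk WD β cells. *Lpl* ran from 1wk Dox MΦs down to ECs, with breaks between 1wk WD and No Dox MΦs and between No Dox β cells and 1wk WD ECs. *Cd36* had breaks between 1wk WD MΦs and 1wk WD ECs and between No Dox ECs and the 1wk Dox EC sample. *Angptl4* and *Meox2* had no break, each group overlapping the next. *Fabp5* and *Lipg* had 1 break each, below the single 1wk Dox EC sample. For *Angptl4* and *Meox2* no order of neighbouring groups goes beyond the spread between samples.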

How the data were processed

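RNA of sorted islet cells was amplified and sequenced, and per the methods and labels reads were aligned with TopHat to mm9 and normalized by TMM in Avadis NGS. The authors deposited 1 table of normalized scores per gene and sample, as whole numbers of at least 1 and not read counts, so depth is unknown and a score of 1 cannot be told from no reads. Because values are scores, they were tested as log2(score + 1) with limma 3.58.1 in R 4.3.3, with a trend of the spread and moderated errors. Genes whose mean score was under 20 in every group fitted were left out. Between MΦs and β cells *Gpihbp1* counted as tested only through the ECs in the fit, with No Dox means of 6.5 in MΦs and 10.8 in β cells. In β cells over time it passed only through 1wk Dox (mean 75.8). *Lipg* did not pass this filter in any comparison. Time points were fitted within a cell type, cell types within a time point with all 3 sharing 1 spread, and interactions over both. Columns were matched to samples by the library identifiers in the table's header rows, which the sample titles also carry. Of its 38 value columns, 6 matched none of the 32 samples and were not used. Each sample came from pooled islets, so p-values measure the spread between such samples, and cells of different types were sorted from the same dispersed islets, which the comparisons of cell types do not model. All 8 members are named, and for each the 3 genes with the highest correlation. From the 5 lists the rule named the genes called, or the 3 largest differences each way where more than 6 were, and names are given for the No Dox comparisons of ECs and for time points. Markers were named singly where they move with a member. *Rgs5* and *Pdgfrb* as ratios, *Cdh5*, *Tcf15*, and *Apln* were chosen after their values were seen. Some items that the rule names are not reported here. The members and lists were chosen with earlier results of these data known. Upstream sequences were read from mm9 at GENCODE M1 starts. The fits were tested on simulated data. Alternatives were pseudocounts of 0.1 and 20, no filter, median-of-ratios and quantile scaling, no trend, sample quality weights, a replicate block, fits of only the groups compared, and leaving out each sample.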

Additional observations from a re-analysis of the deposited data

Results flagged for a closer look

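In groups of 4 to 10 samples, 5 of 48 groups of member scores held a sample whose gap to its nearest neighbour, as a share of the group's range on the log2(score + 1) scale, passed Dixon's 95% critical value of 0.829 for 4 samples. Chance flags about 1 in 20 groups, and all 5 lay at scores of 40 or less. For *Gpihbp1*, these were No Dox β cell replicate 3, with a score of 40 against 1 in the others (gap share 1.0), and No Dox MΦ replicate 2, with 22 against 1 to 2 (gap share 0.834). For *Lipg*, these were No Dox β cell replicate 4, with 19 against 1 (1.0), No Dox MΦ replicate 2, with 3 against 1 (1.0), and No Dox EC replicate 1, with 1 against 9 to 12 (0.86).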

How the results depend on the processing

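Leaving out No Dox β cell replicates 3 and 4, a pair formed after seeing these values and so no independent support, gave 4 members called in β cells at each later time point, and 4 between MΦs and β cells, as did leaving out replicates 1 and 2 (4). Without replicates 1 and 2, *Angptl4* (-3.45) and *Meox2* (-4.44) between ECs and β cells and *Fabp4* (-2.40) between MΦs and β cells reversed, and without 3 and 4, *Angptl4* (3.75) and *Meox2* (2.38) between MΦs and β cells did. In ECs at 1wk WD, 1 member, *Meox2*, was called with quality weights (1) and with a replicate block (1), and 0 to 1 when 1 sample was left out. In MΦs at 1wk Dox, 1 was called with no filter, with no trend, and with only the groups compared, 0 with the replicate block (*Lpl* and *Fabp5* both lost), and 0 to 3 when 1 sample was left out. Between 1wk WD and 1wk Dox MΦs, 0 were called with a pseudocount of 20, no filter, median-of-ratios scaling, no trend, or the replicate block, and 0 to 1 when 1 sample was left out. When 1 sample was left out, 3 to 5 were called between ECs and β cells at No Dox and 3 to 5 between MΦs and β cells at 1wk WD. With quality weights, 5 and 4 were called in the interactions of ECs and of MΦs with β cells. In limma on the single 1wk Dox EC sample, which assumes that it varies like the other groups, 0 were called. The cause of these changes was not tested. Same-numbered samples did not correlate above 0.1 in every pair, so only the replicate block used the numbers as pairs. Between ECs and MΦs, replicates 1 to 4 correlated at 0.233, 0.469, 0.082, and -0.177 at No Dox. At 1wk WD they correlated at 0.248, 0.201, -0.079, and 0.144, so whether the numbers pair cell types is not settled. Quantile scaling moved the median of all genes between cell types from -0.07 to 0.16 for ECs over β cells at No Dox and from -0.12 to 0.28 at 1wk WD. Depth is unknown, so no limit of detection can be given.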
